A study of Homo sapiens with 6 samples.

Results

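The circadian clock genes NFIL3, DBP, PER1, PER2, PER3, CRY1, CRY2, CLOCK, NR1D1 and NR1D2 were examined in SU-CCS-1, an established human clear cell sarcoma line that carries the gene fusion EWSR1::ATF1 (EA1). These 10 genes, of 18118 in the count data, were chosen by name with their control and knockdown levels in these same libraries already known. Their differences from control are therefore a description, with intervals that show the spread and with no p value printed. Calls of members at a threshold are counted only beside the share over all genes and are no test of the members. The study asked which genes depend on EA1, and polyadenylated RNA was sequenced from 2 libraries with the control siRNA siNeg1, 2 with siEA1-1 and 2 with siEA1-2, both labelled as EA1 knockdowns. The study's methods name a single EA1 siRNA, and which of the 2 labels it stands for is not given. All 6 libraries came from this 1 line, which carried the fusion in every group. No label ties a replicate to a culture of its own, so errors and p values measure only the spread between these libraries, which may be technical. Each condition was sampled at 1 time after transfection, so that a shift of clock phase and a change of mean level cannot be told apart, nor can fewer cells that express a gene and less RNA per cell.

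The libraries held 5942808 to 7599305 counts, and 3 counts corresponded to 0.395 to 0.505 CPM. Levels are normalized counts as CPM, the count relative to the library's total after scaling for composition, and log2FC is the log2 fold change of knockdown over control, so that a negative value is a lower level after knockdown. ATF1, whose reads come from the fusion and from the unrearranged gene alike, was at 84.8 ± 3.72 CPM (SD, n = 2) in control and at 20.7 ± 0.66 and 22.0 ± 0.427 CPM with siEA1-1 and siEA1-2. Loss of the fusion and loss of unrearranged ATF1 cannot be told apart in these counts, for ATF1 or for the differences described below. The line's markers MITF, SOX10, PMEL, S100B and ERBB3 were detected in all 6 libraries. Of these, MITF, PMEL, S100B and ERBB3 rose (edgeR adjusted p under 0.05 for the mean of both siRNAs) and SOX10 did not pass (adjusted p = 0.192). ERBB3 rose 3.2-fold with siEA1-1 but did not pass with siEA1-2 (1.3-fold, adjusted p = 0.0742), and the siRNAs differed in it (log2 difference 1.30, adjusted p = 0.00246). PMEL, a melanosome protein, went from 1220 CPM in control to 4850 and 6000 CPM. The part of this shift in the clock gene values was not tested.

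The mammalian clock is a transcriptional feedback loop. CLOCK pairs with BMAL1 (ARNTL) on E-boxes and activates the PER and CRY genes, whose proteins return to the nucleus and repress CLOCK and BMAL1. The nuclear receptors REV-ERBα (NR1D1) and REV-ERBβ (NR1D2) close another loop by repressing ARNTL and NFIL3. NFIL3 (E4BP4) is a bZIP repressor that competes at D-boxes with the PAR bZIP activators DBP, TEF and HLF. ATF1, the DNA-binding partner in the fusion, belongs to the CREB family, which binds the cAMP response element (CRE), and PER1 and PER2 are known cAMP-responsive genes in other cells.

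Promoter windows of all 10 genes were found in RefSeq (15 windows of 300 bases, 250 before and 50 from the start site on, GRCh38.p14). Both strands were searched for the full CRE TGACGTCA, the CRE half-site TGACG (or CGTCA), which the full CRE contains, the E-box CACGTG, the D-box TTANGTAA (or TTACNTAA) and the receptor half-site AGGTCA (or TGACCT). No window of the 10 genes held the full CRE, against 1.85% of 35116 windows of all genes. The half-site was in 8 of the 15 windows (of NFIL3, PER2, CRY1, CRY2, CLOCK and NR1D2) and in 24.6% of all windows. D-boxes lay in 3 windows (of PER2, PER3 and NR1D2) and in 2.18% of all windows, and E-boxes in 2 (of PER1 and NR1D2) and in 7.26% of all windows. Receptor half-sites lay in 4 windows (of NFIL3, PER1 and CRY2) and in 13.8% of all windows. These are matches of letters and not measured binding. For NFIL3, the study itself reports EA1 binding at the promoter in human clear cell sarcoma lines, from data not analysed here.

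The stretches below carry the matches of NFIL3 and PER2, the members with the largest differences, and the D-boxes of PER3 and NR1D2, which are sites of the kind that NFIL3 and DBP recognize. Each is written 5′ to 3′ on the strand of its gene, with the matched motifs in capitals. The first NFIL3 stretch (chr9:91424597-91424701, minus strand) has a CRE half-site 15 bases before the upstream start, and the next (chr9:91423803-91423901, minus strand) a receptor half-site 9 bases before the other start. The first stretch and its start lie outside the NFIL3 span used here for coordinates and length (chr9:91409045-91423832). Only the next stretch, which has no CRE half-site, reaches into that span. In PER2 (chr2:238288581-238288723, minus strand) the half-site begins 53 bases and the D-box 3 bases before the start. The D-box of PER3 (chr1:7784054-7784181, plus strand) lies 177 bases before the start. The stretch from the downstream NR1D2 window (chr3:23945871-23946150, plus strand) holds 2 CRE half-sites, 1 D-box and 2 E-boxes.
NFIL3, upstream start: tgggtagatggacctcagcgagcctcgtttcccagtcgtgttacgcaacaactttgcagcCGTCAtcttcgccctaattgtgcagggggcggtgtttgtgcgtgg
NFIL3, downstream start: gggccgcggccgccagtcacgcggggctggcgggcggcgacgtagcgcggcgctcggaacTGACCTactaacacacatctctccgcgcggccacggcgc
PER2: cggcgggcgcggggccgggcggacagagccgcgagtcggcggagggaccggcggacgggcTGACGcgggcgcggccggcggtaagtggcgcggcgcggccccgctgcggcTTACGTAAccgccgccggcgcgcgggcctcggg
PER3: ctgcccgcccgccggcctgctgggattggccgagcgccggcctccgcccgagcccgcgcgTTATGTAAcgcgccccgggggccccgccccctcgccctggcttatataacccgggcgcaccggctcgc
NR1D2, downstream start: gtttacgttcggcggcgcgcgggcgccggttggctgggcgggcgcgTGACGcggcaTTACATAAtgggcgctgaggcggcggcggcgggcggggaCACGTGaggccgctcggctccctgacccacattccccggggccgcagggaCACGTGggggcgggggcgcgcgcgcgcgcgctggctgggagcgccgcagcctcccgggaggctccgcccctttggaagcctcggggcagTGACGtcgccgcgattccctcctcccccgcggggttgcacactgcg

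NFIL3 (ENSG00000165030, chr9:91409045-91423832, minus strand, hg38) had the widest gap of the 10 genes. The control libraries held 803 and 814 counts, or 120 and 105 CPM. With siEA1-1 the counts were 108 and 89 (15.4 and 14.7 CPM), and with siEA1-2 they were 69 and 105 (12.3 and 14.7 CPM). Every knockdown library lay far below both controls, and the libraries of the 2 siRNAs lay side by side. The log2FC was -2.90 (SE 0.14) with siEA1-1 and -3.05 (SE 0.15) with siEA1-2. For the mean of both it was -2.97 (95% interval -3.22 to -2.72), or 7.85-fold lower, the 157th lowest of 14571 genes tested. Over all alternative settings this value stayed between -3.10 and -2.87.

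DBP (ENSG00000105516, chr19:48630030-48637379, minus strand), the activator that NFIL3 opposes at D-boxes, lay on the other side of control. It stood at 12.0 and 10.4 CPM in control, at 16.6 and 16.8 CPM with siEA1-1 and at 18.7 and 15.3 CPM with siEA1-2. All 4 knockdown libraries were above both controls, on counts of 80 and 81 in control and 102 to 117 after knockdown. The log2FC was 0.58 (SE 0.20) and 0.60 (SE 0.20) for the 2 siRNAs, and 0.59 for their mean (95% interval 0.20 to 0.98). SPHK2, whose exons overlap those of DBP on the opposite strand over 661 bases, was at 22.5 and 26.2 CPM in control and 18.3 to 25.8 CPM after knockdown. The libraries were stranded but the strand setting of the counting is not stated, so reads of the shared bases cannot be assigned, and SPHK2 had a log2FC of -0.14 (SE 0.16).

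**Figure D1:**
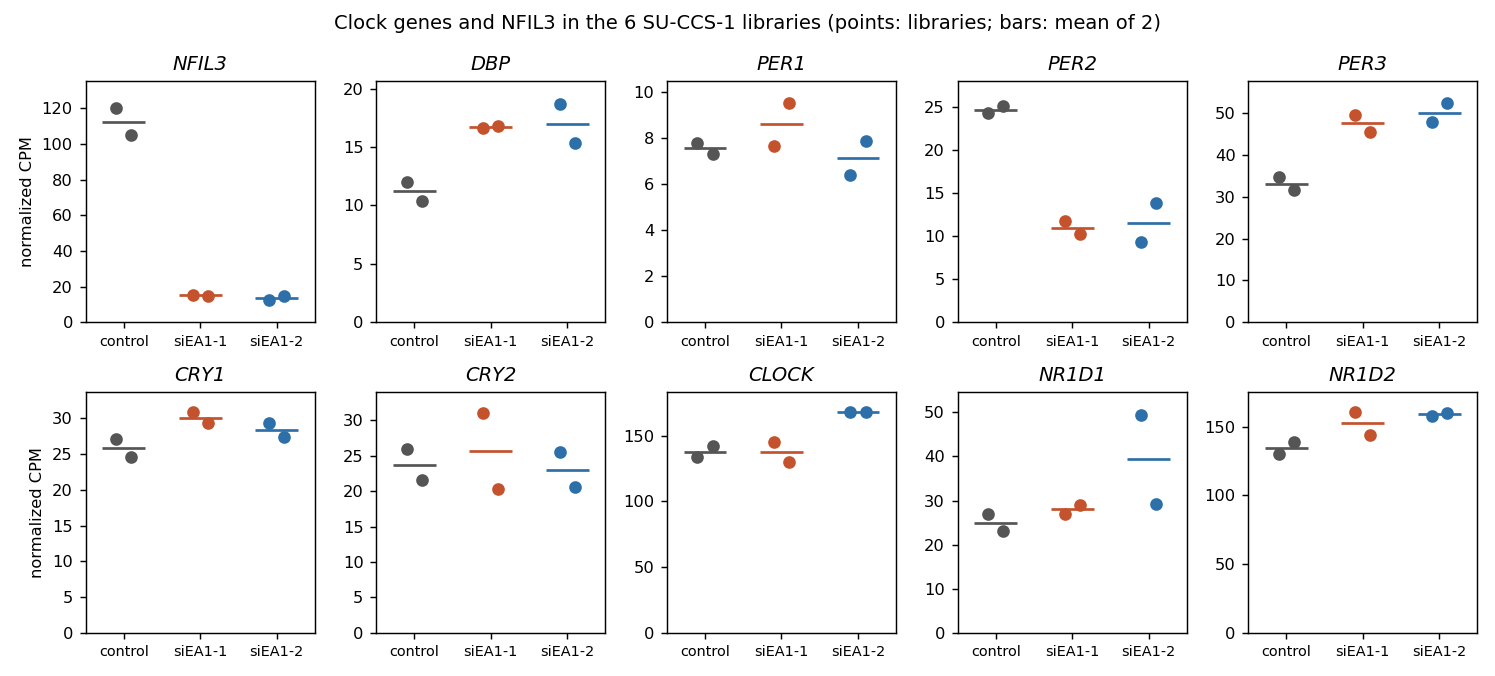
Normalized CPM (linear axes from 0, scaled per gene) of each of the 10 genes, 1 panel a gene, with points for the 6 libraries and bars for group means. NFIL3 and PER2 sit lower in all 4 knockdown libraries, while DBP and PER3 sit higher in all 4.

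The period genes encode the repressors that partner the cryptochromes. PER2 (ENSG00000132326, chr2:238244044-238290102, minus strand) was at 24.2 and 25.1 CPM in control, 11.7 and 10.2 CPM with siEA1-1, and 9.26 and 13.8 CPM with siEA1-2. No knockdown library reached the controls, although the libraries of siEA1-2 were the more spread (SD 3.18 against 1.03 CPM). The log2FC was -1.17 (SE 0.22), -1.08 (SE 0.22) and -1.13 (95% interval -1.52 to -0.73) for siEA1-1, siEA1-2 and their mean, the last being 2.18-fold lower.

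PER3 (ENSG00000049246, chr1:7784291-7845177, plus strand) stood at 34.7 and 31.6 CPM in control, 49.6 and 45.6 CPM with siEA1-1, and 47.9 and 52.4 CPM with siEA1-2. The groups of control and knockdown did not overlap, and the knockdown libraries of both siRNAs intermingled. The log2FC was 0.52 (SE 0.13) and 0.60 (SE 0.13), and 0.56 for the mean of both (95% interval 0.31 to 0.81). UTS2 shares 868 exon bases with PER3 on the opposite strand. It was not among the genes tested, so no level is given for it.

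PER1 (ENSG00000179094, chr17:8140472-8156506, minus strand), often the fastest of the period genes to answer an inducing signal, was the scarcest member. It stood at 7.78 and 7.33 CPM in control, at 7.68 and 9.55 CPM with siEA1-1 and at 6.41 and 7.86 CPM with siEA1-2. The groups overlapped. Its lowest count was 36, whose exact 95% Poisson interval of 25.2 to 49.8 covers counting error only. The log2FC for the mean of both was 0.06 (95% interval -0.46 to 0.57), an interval wide enough to hold a difference of the size seen for PER3.

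Per kilobase of each gene's Ensembl canonical transcript, PER3 was the most abundant period transcript in control and PER1 the least. PER2 made up 34.8 and 37.5% of the summed PER level in control, 16.2 and 14.8% with siEA1-1, and 14.0 and 17.9% with siEA1-2. The share of PER3 was 48.7 ± 1.75% in control and 67.8 ± 2.05% and 70.5 ± 3.21% with siEA1-1 and siEA1-2 (SD, n = 2). The summed level itself was 10.9 and 10.5 CPM per kilobase in control, 11.3 and 10.8 with siEA1-1 and 10.3 and 12.1 with siEA1-2. PER2 thus held a smaller and PER3 a larger share after knockdown, while the summed levels of the groups overlapped.

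The same scale sets NFIL3 against its opponents at D-boxes. The ratio of NFIL3 to the sum of DBP, TEF and HLF was 5.3 and 6.1 in control, 0.412 and 0.462 with siEA1-1, and 0.359 and 0.55 with siEA1-2. NFIL3 transcripts therefore outnumbered those of the PAR bZIP activators in both control libraries and were fewer than them in all 4 knockdown libraries. The sum of the activators was 9.69 ± 1.9 CPM per kilobase in control against 16.8 ± 1.89 and 14.8 ± 2.54, so that both sides of the ratio differed. With the union of all annotated exons as length, which makes DBP longer, the mean ratios were 9.41 in control and 0.67 and 0.743 after knockdown.

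**Figure D2:**
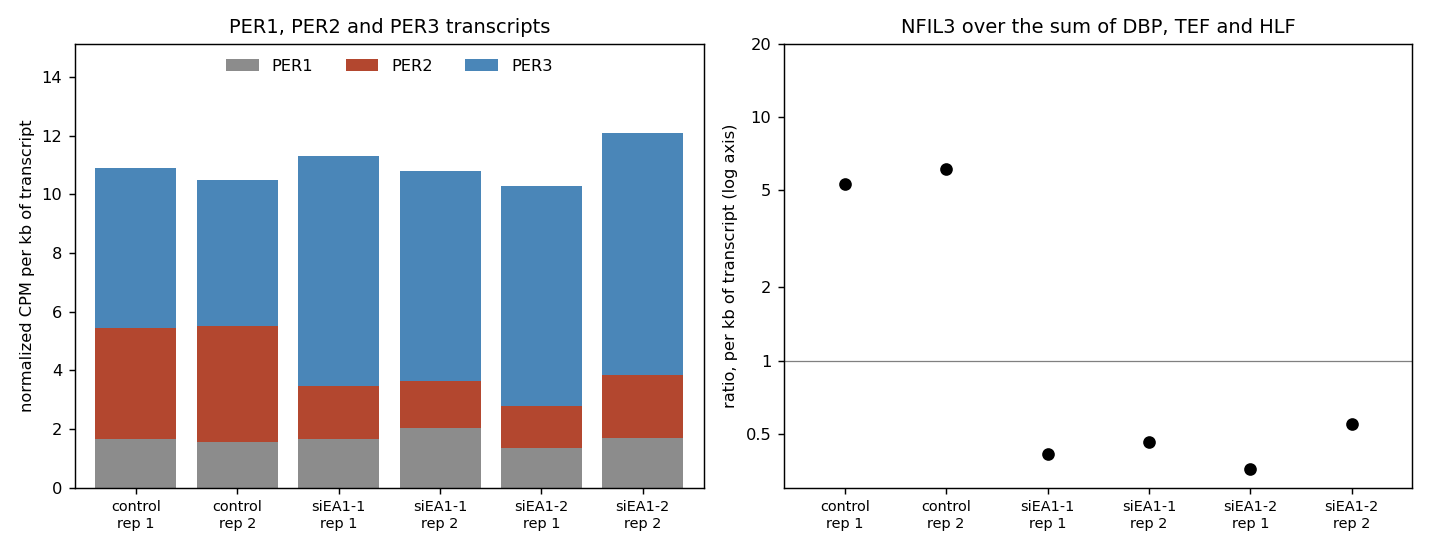
Levels per kilobase of canonical transcript in each of the 6 libraries: stacked bars of PER1, PER2 and PER3 (normalized CPM per kilobase) and points for the ratio of NFIL3 to DBP, TEF and HLF together (log axis, with a line at 1). The share of PER2 in the stack drops from 36.2% to 15.5% and 15.9%, and the ratio from 5.7 to 0.437 and 0.454 (group means).

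The cryptochromes, the main repressors of CLOCK and BMAL1, differed little between the groups. CRY1 (ENSG00000008405, chr12:106991364-107093549, minus strand) was at 27.1 and 24.6 CPM in control, 30.9 and 29.3 CPM with siEA1-1, and 29.4 and 27.4 CPM with siEA1-2. Every knockdown library was above both controls, by a narrow margin, and the log2FC for the mean of both was 0.18 (95% interval -0.11 to 0.47). CRY2 (ENSG00000121671, chr11:45847118-45883248, plus strand) was at 25.9 and 21.6 CPM in control, 31.0 and 20.3 CPM with siEA1-1, and 25.5 and 20.6 CPM with siEA1-2. The groups overlapped, with a log2FC of 0.04 (95% interval -0.37 to 0.45), and its direction changed with the library left out. CRY1 made up 60.1 ± 1.41% of the summed CRY level in control and 62.3 ± 6.19% and 63.1 ± 2.3% with siEA1-1 and siEA1-2.

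CLOCK (ENSG00000134852, chr4:55427903-55546909, minus strand), the activator that drives the PER and CRY genes, had 134 and 142 CPM in control, 145 and 130 CPM with siEA1-1, and 168 and 168 CPM with siEA1-2. The libraries of siEA1-1 bracketed the controls, while both of siEA1-2 were higher. The log2FC was -0.00 (SE 0.10) with siEA1-1 and 0.28 (SE 0.10) with siEA1-2. Its partner ARNTL had a log2FC of -0.17 (SE 0.15) for the mean of both, which did not pass the test (edgeR's quasi-likelihood test, adjusted p = 0.392).

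The REV-ERB receptors, repressors of ARNTL and of NFIL3, were higher in every knockdown library than in either control, for NR1D1 by as little as 27.0 against 26.9 CPM. Such an order was seen in 28.1% of all genes tested. NR1D2 (ENSG00000174738, chr3:23945286-23980617, plus strand) was at 130 and 139 CPM in control, 161 and 144 CPM with siEA1-1, and 158 and 160 CPM with siEA1-2. Its log2FC was 0.18 (SE 0.10) and 0.24 (SE 0.10), and 0.21 for the mean of both (95% interval 0.02 to 0.41).

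NR1D1 (ENSG00000126368, chr17:40092793-40100589, minus strand) was at 26.9 and 23.0 CPM in control and at 27.0 and 29.0 CPM with siEA1-1. With siEA1-2 it was at 49.3 CPM in replicate 1 and 29.3 CPM in replicate 2, so that 1 library stood well above the other 5. The log2FC was 0.17 (SE 0.22) with siEA1-1 and 0.41 for the mean of both (95% interval -0.02 to 0.83). With siEA1-2 it was 0.65 (SE 0.22) over both replicates, 0.21 without replicate 1 and 0.95 without replicate 2. Exons of NR1D1 overlap THRA, the thyroid hormone receptor α gene on the opposite strand, over 473 bases or 18.0% of the exon length of NR1D1. THRA was at 51.9 and 59.0 CPM in control, 114.0 and 114.0 CPM with siEA1-1, and 128.0 and 96.7 CPM with siEA1-2 (log2FC 1.02, SE 0.12). The library highest in NR1D1 was thus also the highest in THRA, whereas with siEA1-1 THRA was higher and NR1D1 close to control. How many reads the 2 genes share was not tested.

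With edgeR's quasi-likelihood test at an adjusted p under 0.05 over all 14571 genes, siEA1-1 gave 2 members called higher (DBP and PER3), where 19.9% of all genes were called higher, and 2 called lower (NFIL3 and PER2), where 20.3% were called lower. siEA1-2 gave 4 called higher (DBP, PER3, CLOCK and NR1D1) beside 18.5% of all genes, and 2 called lower (NFIL3 and PER2) beside 18.2%. For the mean of both, 2 were called higher beside 21.5% of all genes and 2 lower beside 22.1%. In 5 members (DBP, PER3, CRY1, NR1D1 and NR1D2) every knockdown library was higher than both controls, as in 28.1% of all genes, and in 2 (NFIL3 and PER2) every one was lower, as in 27.3%. For each siRNA alone, the higher calls depended on single libraries. With siEA1-1, neither DBP nor PER3 was called without control replicate 2 or without siEA1-1 replicate 1, and DBP was also lost with DESeq2 and without control replicate 1 or siEA1-1 replicate 2. With siEA1-2, no member was called higher without control replicate 2. PER3 alone was left with DESeq2 and without control replicate 1, either siEA1-1 library or siEA1-2 replicate 1. CLOCK was further lost with RLE size factors, with no filter and without siEA1-2 replicate 2. For the mean of both, PER3 kept its call, while DBP was lost with DESeq2 and without control replicate 2 or siEA1-1 replicate 2. NR1D1 was gained only without siEA1-2 replicate 2, at a log2FC of 0.55. These calls, kept or lost, describe genes chosen with the values known. They are no test of the members, and nothing further is read from them. The median log2FC of the 10 genes was 0.16 for the mean of both, beside 0.01 over all genes tested.

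**Figure D3:**
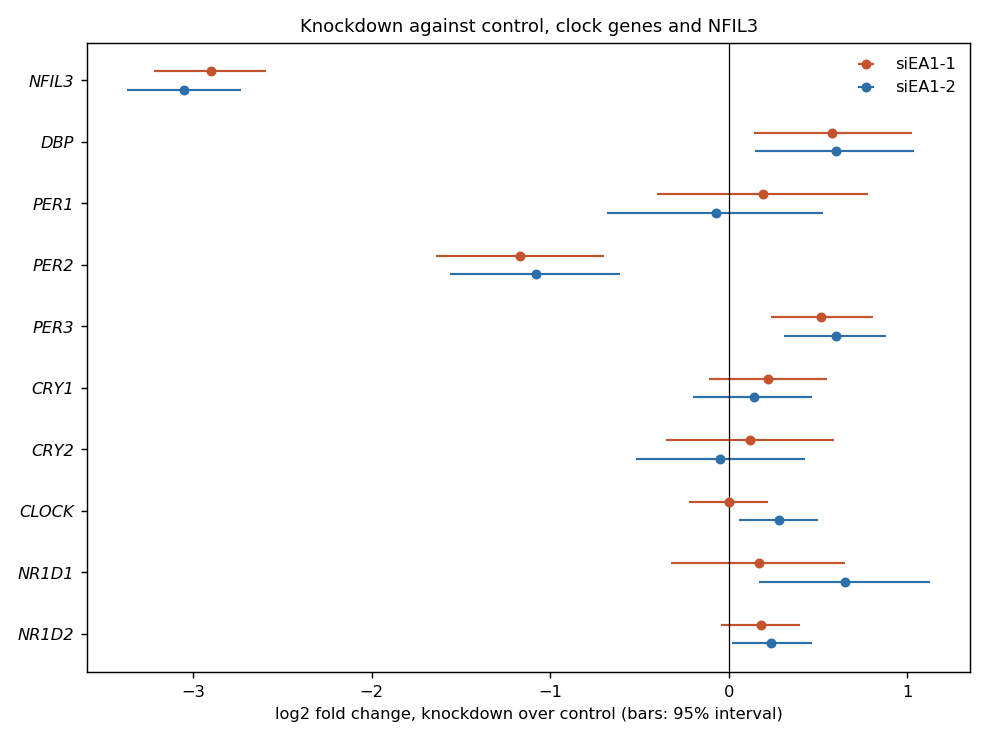
Log2FC of knockdown over control for the 10 genes, with a point and its 95% interval (bars) for each of siEA1-1 and siEA1-2. NFIL3 (-2.90 and -3.05) and PER2 (-1.17 and -1.08) lie apart from the other 8, which lie between -0.07 and 0.65.

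The order of the genes by level per kilobase changed with NFIL3. In control, NFIL3 was first at 54.7 ± 5.34 CPM per kilobase of canonical transcript (SD, n = 2), followed by NR1D2 at 25.7 ± 1.28 and CLOCK at 13.2 ± 0.548. NR1D1 at 9.5 ± 1.06 and CRY1 at 8.65 ± 0.6 overlapped in their libraries, as did CRY2, PER3 and DBP between 5.16 and 5.75. PER2 at 3.87 ± 0.0913 and PER1 at 1.62 ± 0.0687 were the lowest. With both siRNAs NFIL3 was in place 7 of 10, at 7.3 ± 0.242 and 6.57 ± 0.846, close to DBP and PER3, which were at 7.48 to 7.87. NR1D2 then led, at 29.1 with siEA1-1 and 30.4 with siEA1-2. CLOCK was next at 13.1 and 16.0, but with siEA1-2 its libraries overlapped those of NR1D1 (11.2 and 18.7), which stood above it per kilobase of exon union. PER2 joined PER1 at the foot of the order, at 1.71 and 1.8 against 1.84 and 1.53. The order below NR1D2 depends on the length used. Per kilobase of exon union, DBP was in place 9 in control at 1.73, below PER2 at 3.48. NFIL3 was then in place 4 with both siRNAs, at 7.3 and 6.57, above DBP at 2.58 and 2.62, and first in control as before.

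The 2 knockdown groups were also tested against each other, a contrast other than the one from control. The fit takes its spread from all 3 groups, and the members' levels were known when they were chosen, so these p values are no independent evidence. No member passed the test between siEA1-1 and siEA1-2 (0 of 10 with an adjusted p under 0.05 in edgeR, beside 2.24% of all genes), and DESeq2 called none of the 7 members to which it gave an adjusted p, leaving DBP, PER1 and PER2 without one. At an unadjusted p under 0.05 there were 2 of 10, CLOCK and NR1D1, beside 2471 of all 14571 genes tested. For NFIL3 the difference of siEA1-1 minus siEA1-2 was 0.14 on the log2 scale (95% interval -0.22 to 0.51, edgeR adjusted p = 0.734). For PER2 it was -0.08 (-0.59 to 0.42, adjusted p = 0.906), for PER3 -0.07 (-0.35 to 0.20, adjusted p = 0.831) and for DBP -0.02 (-0.45 to 0.42, adjusted p = 0.977). The interval of NFIL3 is small beside its log2FC from control, while that of DBP reaches 0.42, close to its own log2FC of 0.59. CLOCK was lower with siEA1-1 by a difference of -0.29 (-0.51 to -0.07, adjusted p = 0.175). For NR1D1 the difference was -0.48 (-0.96 to -0.00, adjusted p = 0.292). It passed the test without replicate 2 of siEA1-2 (-0.81, adjusted p = 0.015), which leaves only the outlying library at 49.3 CPM, assumed to vary like the other groups. It was -0.07 without replicate 1 (adjusted p = 0.918).

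Other genes of the clock were then read from a list of 25, of which 24 could be tested, since ARNTL2 had too few counts. The list was drawn up with earlier results of these data known, so its counts and p values are no independent evidence either. For the mean of both siRNAs, 5 rose and 7 fell (edgeR, adjusted p under 0.05). The 12 called of 24 stand beside 43.5% of all genes tested, and the median log2FC of the 24 was 0.04, beside 0.01 over all genes. Of the 12, 5 were called in all 12 settings (BHLHE41, WEE1, TSC22D3, KLF9 and KLF10). RORB was called wherever it was tested. The remaining 6 each lost the call in at least 1 setting that left out a library: TEF without control replicate 2, SIRT1 without control replicate 1, NPAS2 without either control or siEA1-1 replicate 1, CSNK2A1 without either control or either siEA1-1 library, BTRC without control replicate 1, siEA1-1 replicate 2 or siEA1-2 replicate 1, and USP2 without control replicate 2 or siEA1-1 replicate 1. Their highest adjusted p over all settings ran from 0.0793 for SIRT1 to 0.259 for BTRC.

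Among the relatives of the members, TEF, the PAR bZIP partner of DBP, rose with a log2FC of 0.85 (SE 0.22, adjusted p = 0.00774), though not without replicate 2 of the control (0.50, adjusted p = 0.131) and not with siEA1-2 alone (0.64, adjusted p = 0.0645). HLF, the remaining PAR bZIP factor, did not pass (0.35, SE 0.43, adjusted p = 0.544). NPAS2, which can stand in for CLOCK, fell by 0.33 (SE 0.11, adjusted p = 0.0288) but was not called by DESeq2 (adjusted p = 0.101), nor with siEA1-1 alone (adjusted p = 0.227). RORB, an activator at the sites that REV-ERB receptors occupy, had 4 and 2 counts in control, 38 and 32 with siEA1-1 and 82 and 34 with siEA1-2, and rose (log2FC 4.04, SE 0.64, adjusted p = 3.59e-04). The log2FC of RORB moved with the library left out, from 3.50 without control replicate 2 to 4.70 without control replicate 1. The related RORA did not pass (-0.22, SE 0.11, adjusted p = 0.118). BHLHE41 (DEC2), a repressor at E-boxes, was at 8.08 and 3.34 CPM in control, 42.9 and 22.9 CPM with siEA1-1 and 65.7 and 27.1 CPM with siEA1-2, and rose (2.80, SE 0.44, adjusted p = 3.57e-04), with a log2FC of 3.54 without control replicate 1 and 2.23 without control replicate 2. Its relative BHLHE40, with 625 and 778 counts in control, did not pass for the mean of both (-0.22, SE 0.10, adjusted p = 0.097) and fell with siEA1-1 alone (-0.34, adjusted p = 0.0409).

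Of 5 output genes under clock control, 4 fell, where 22.1% of all genes were called lower. WEE1, a kinase that holds back entry into mitosis, was at 73.5 and 79.8 CPM in control and 26.5 to 40.9 CPM after knockdown (log2FC -1.25, SE 0.15, adjusted p = 4.25e-05). The glucocorticoid-responsive TSC22D3 fell by 0.82 (SE 0.15, adjusted p = 8.62e-04), KLF9 by 0.81 (SE 0.13, adjusted p = 4.41e-04) and KLF10 by 0.68 (SE 0.10, adjusted p = 2.48e-04) on the log2 scale. NAMPT, the other output gene listed, did not pass (0.06, SE 0.09, adjusted p = 0.652).

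Of 10 listed enzymes and corepressors that act on clock proteins, 4 were called, 2 in each direction, where 43.5% of all genes were called. These are again calls for the mean of both. CSNK1D, CSNK1E, GSK3B, FBXW11, NCOR1 and HDAC3 were not called, although CSNK1E fell with siEA1-2 alone (log2FC -0.43, adjusted p = 0.0161). USP2, a deubiquitinase of clock proteins, rose by 0.84 (SE 0.26, adjusted p = 0.0206) and the ubiquitin ligase subunit BTRC, which marks PER proteins for degradation, by 0.36 (SE 0.12, adjusted p = 0.0285), and DESeq2 called neither. USP2 did not pass with siEA1-1 alone (adjusted p = 0.0612), nor BTRC with siEA1-2 alone (adjusted p = 0.0712). The kinase subunit CSNK2A1 fell by 0.24 (SE 0.08, adjusted p = 0.0314) but did not pass with siEA1-2 alone (adjusted p = 0.106). The deacetylase SIRT1 fell by 0.53 for the mean of both (SE 0.15, adjusted p = 0.0118). Its levels were 34.6 ± 1.46 CPM in control, 31.9 ± 6.63 CPM with siEA1-1 and 18.0 ± 0.00679 CPM with siEA1-2, so that the lower level lay with siEA1-2.

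**Figure D4:**
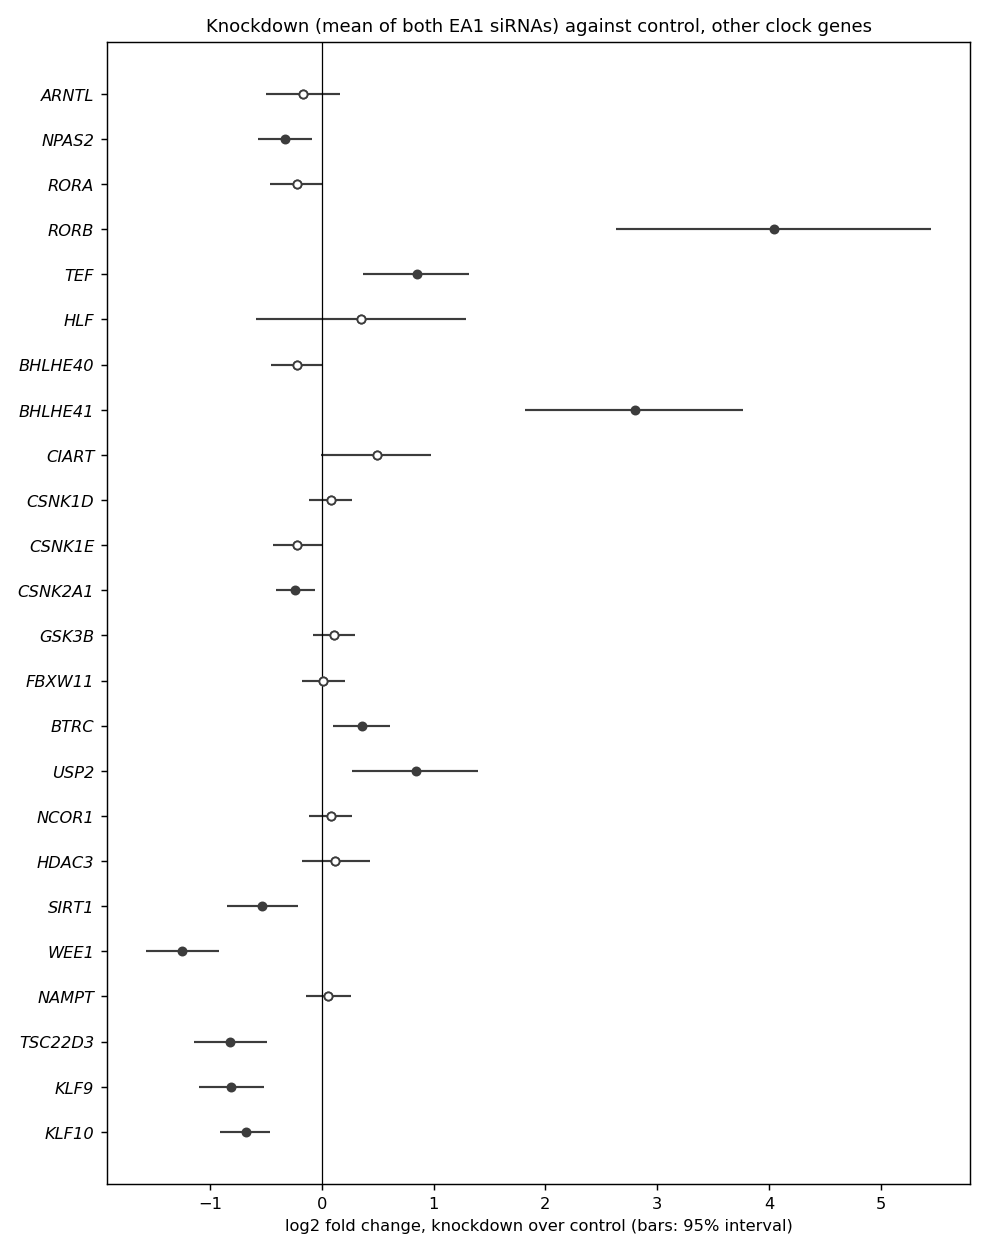
Log2FC of the mean of both EA1 siRNAs over control (point, with its 95% interval) for the 24 other clock genes tested, ordered by role, with filled points for an adjusted p under 0.05 and open points for the rest. The 12 filled points run from -1.25 for WEE1 to 4.04 for RORB.

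The genes whose levels over the 6 libraries ran closest to those of NFIL3, by the root mean square difference of log2 CPM centred on control, were CSRNP1 (0.115), TNFRSF1B (0.171), KRT80 (0.18), NHS (0.19) and VASN (0.203). Their log2FC for the mean of both ran from -3.37 for TNFRSF1B to -2.93 for CSRNP1, around the -2.97 of NFIL3. After knockdown TNFRSF1B and KRT80 were at 0.534 to 0.983 CPM, close to the level of 3 counts, and their log2FC carried an SE of 0.37. For DBP, the member with the largest log2FC above 0 for the mean of both, they were BLCAP (0.0484), TBC1D23 (0.0522), CD164 (0.0545), SELENOW (0.0551) and TMEM60 (0.0553), with log2FC of 0.54 to 0.63. These distances describe likeness over 6 libraries in 3 groups. They were the smaller for DBP, whose difference from control was itself small.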

How the data were processed

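Polyadenylated RNA of SU-CCS-1 cells was sequenced from 6 libraries, 2 per condition, and conditions were taken from the sample labels. The authors used BWA-MEM for alignment and featureCounts 1.6.3 for counting (submitters' processing notes, hg38), and deposited raw counts per gene. The libraries were made with a stranded kit. The annotation and the strand setting of the counting are not given in the sources used here.

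From these counts, genes were filtered in edgeR 4.0.16 (R 4.3.3) by filterByExpr (minimum count 10, minimum total 15) and fitted with TMM scaling and the quasi-likelihood test over 3 groups. Benjamini-Hochberg adjustment covered 14571 genes. Coordinates and transcript lengths came from GENCODE release 44 and promoters from RefSeq. The alternatives were no filter, a minimum of 10 counts per library, RLE size factors, a replicate block, DESeq2 1.42.0 and each library left out in turn. The exon-union length was chosen after seeing the data.

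The members and lists were chosen with earlier results of these data known, and 2 further clock genes are not reported here. Genes named are the 10 members, the other clock genes called for the mean of both siRNAs, ARNTL, TEF, HLF and RORA, the targeted genes ATF1 and EWSR1, and the 5 genes nearest NFIL3 and DBP over the 6 libraries. The line's markers, THRA, SPHK2 and the remaining clock genes named were added after their values were seen, and UTS2 for its position. EWSR1 was at 216, 199 and 209 CPM in control, siEA1-1 and siEA1-2.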

Additional observations from a re-analysis of the deposited data

Results flagged for a closer look

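SIRT1, a deacetylase that acts on clock proteins, was the 1 of 24 other clock genes tested that edgeR called different between the siRNAs, where 2.24% of all genes were called. It was at 35.6 and 33.6 CPM in control, 36.5 and 27.2 CPM with siEA1-1 and 18.0 CPM in both libraries with siEA1-2. The difference of siEA1-1 minus siEA1-2 was 0.83 on the log2 scale (SE 0.18, edgeR adjusted p = 0.0379). DESeq2 (adjusted p = 0.0244) and the replicate block (0.0101) kept the call. It was lost without control replicate 1 (0.0599), without control replicate 2 (0.0569), without siEA1-1 replicate 1 (0.267) and without siEA1-1 replicate 2 (0.0832). TSC22D3 was called with the replicate block (0.66, adjusted p = 0.0421) and without siEA1-2 replicate 2 (0.84, adjusted p = 0.033), and RORB without siEA1-2 replicate 2 (-1.44, adjusted p = 0.0447).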

How the results depend on the processing

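The count of genes that differed between siEA1-1 and siEA1-2 was 326 and rose to 853 with the replicate block. It was 186 and 206 without control replicate 1 and 2, and ran from 33 (without siEA1-1 replicate 2) to 788 (without siEA1-2 replicate 2) when a library was left out, and the members among them from 0 to 1. Over the same omissions the other clock genes called for the mean of both siRNAs ran from 8 (without control replicate 2) to 12. They were 13 with the replicate block, which added CIART and lowered the SE of BHLHE41 from 0.44 to 0.17 and of TEF from 0.22 to 0.13, 9 with DESeq2 and 11 with at least 10 counts in every library. The difference in log2 CPM between libraries 1 and 2 of a group was correlated between groups, over the 14571 genes tested. The correlations were 0.13 for control with siEA1-1, 0.199 for control with siEA1-2 and 0.144 for siEA1-1 with siEA1-2. The labels do not say what the numbers mark and 2 libraries per group are too few to settle it, so the block stayed an alternative. Among the log2FC of clock genes run under the alternatives, none called in the main setting changed sign. The RORB difference between the siRNAs, not called in the main setting, ran from -1.44 to 0.16 over the settings. Of the log2FC of members under the alternatives, 314 moved by less than the spread between replicates and 16 by more. Low counts limit PER1 (36 to 58), HLF (11 to 16) and RORB in control (2 and 4).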

Other observations

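Of the 24 other clock genes tested, 9 (RORA, RORB, TEF, BHLHE41, CIART, CSNK1D, CSNK2A1, USP2 and SIRT1) were higher in the library numbered 1 than in the library numbered 2 of all 3 groups, SIRT1 by an effective tie with siEA1-2 (18.0 CPM in both), and 1 (CSNK1E) was lower in all 3. Over all genes tested these shares were 16.3% and 16.5%. CIART, a repressor of CLOCK and BMAL1, was at 15.1 and 9.13 CPM in control, 23.9 and 18.9 CPM with siEA1-1 and 14.8 and 11.9 CPM with siEA1-2. It was called higher with siEA1-1 alone (log2FC 0.83, edgeR adjusted p = 0.0205) but not with siEA1-2 alone (0.14, adjusted p = 0.713). TEF was at 22.9 and 14.3 CPM, 44.5 and 32.3 CPM, and 33.1 and 24.6 CPM in the same groups. Among the 10 members, CRY1 and CRY2 had this order. The labels do not say what the numbers stand for, and the genes were picked out after their values were seen.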
